A study of Mus musculus with 5 samples.

Results

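The annexin family was read as 8 of the 55487 genes counted by RNAseq in macrophages of the atherosclerotic aorta, namely *Anxa1*, *Anxa2*, *Anxa3*, *Anxa4*, *Anxa5*, *Anxa6*, *Anxa7* and *Anxa11*. The genes were taken by their symbols. The family was chosen by the p value of *Anxa3* in the comparison of the genotypes, which ranked 13 of the 7905 genes tested, so the genotype difference of *Anxa3* is given as a description with no test. The other 7 genes were taken as members of the family. All 8 passed the filter on low counts, although *Anxa6* and *Anxa11* passed it on very few libraries.

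The macrophages came from male mice kept on chow during their first 8 weeks and on a Western diet over the next 10 weeks. All mice lacked *Apoe*, which raises plasma cholesterol, and carried the floxed *Zeb1* alleles. The Zeb1WT/ApoeKO group, 2 libraries labelled WT, was *Zeb1* fl/fl with no Cre named for it. In the Zeb1ΔM/ApoeKO group, 3 libraries labelled KO, Cre driven by the *Lyz2* promoter removed exon 6 of *Zeb1* in myeloid cells, which include neutrophils and monocytes as well as macrophages. Cells were sorted as viable CD45+, CD11b+ and F4/80+, the cells of 3 mice were pooled for each genotype, and cDNA was amplified with an ultra-low-input kit. Replicates of the study are described in general as biologically independent, whereas the RNAseq methods describe mixed cells and libraries made in triplicate. The labels do not say whether the libraries of a genotype came from separate pools, so the p values measure the spread between these libraries, which may be technical.

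Annexins are cytosolic proteins that attach to membranes rich in acidic phospholipids when calcium rises. They share a core of repeated calcium-binding domains and differ in their N-terminal ends, where most partner proteins bind. In macrophages they are known for membrane repair, for endosome and lysosome traffic, for the uptake of apoptotic cells and, through secreted annexin A1, for limiting inflammation. In atherosclerosis, labelled annexin A5 is used to image dying cells in plaques.

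Total counts were between 20118545 and 50649912 per library. Counts are given below as deposited, and CPM are counts scaled to a common library size with TMM factors, a correction for library composition. A count of 3, taken as the floor of detection, was 0.0597 to 0.248 CPM in these libraries, a limit that covers counting error only. Both libraries numbered 1 stood apart from the other 3. Zeb1ΔM/ApoeKO replicate 1 had 16423 genes with more than 3 counts but only 870 with at least 100, and Zeb1WT/ApoeKO replicate 1 had 6931 and 1714. The remaining libraries had 5009 to 6829 genes with more than 3 counts and 3173 to 4421 with at least 100. *Zeb1* had 22 counts in Zeb1ΔM/ApoeKO replicate 1 and 0 in the other 4 libraries, so it did not check the genotype labels. Of 10 macrophage markers, 6 to 9 exceeded 3 counts in each library. *Lyz2*, *Adgre1* and *Ptprc* were counted in all 5, whereas *Mertk* was above 0 in 1 library only, and *Cd68* had 0 counts in Zeb1WT/ApoeKO replicate 1 and 10 in Zeb1ΔM/ApoeKO replicate 1.

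The family was counted unevenly across the 5 libraries. Zeb1WT/ApoeKO replicate 2 had at least 100 counts for 7 of the 8 annexin genes, and Zeb1WT/ApoeKO replicate 1 for 2 of them. Zeb1ΔM/ApoeKO replicates 1, 2 and 3 had at least 100 counts for 2, 5 and 6 of the genes. Over all 7905 genes tested, the shares with at least 100 counts were 20.2% and 48.4% in the Zeb1WT/ApoeKO libraries and 9.83%, 36.7% and 46.7% in the Zeb1ΔM/ApoeKO libraries, so both libraries numbered 1 were also the lowest over all genes. No annexin gene reached 100 counts in all 5 libraries. *Anxa1*, *Anxa3* and *Anxa5* did so in 4 libraries, *Anxa2*, *Anxa4* and *Anxa7* in 3, *Anxa6* in 1 and *Anxa11* in none (0 libraries). Of the 7341 genes in the table that reached 100 counts in any library, 48.8% did so in a single library, 8.34% in 4 and 4.07% in 5.

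*Anxa3* encodes an annexin that is abundant in neutrophils and monocytes, where it associates with granule membranes. The gene (ENSMUSG00000029484.12) lies on chromosome 5 of GRCm38 from 96793339 to 96845966, on the plus strand. It had 0 and 3124 counts in the Zeb1WT/ApoeKO libraries and 249215, 22150 and 12914 counts in the Zeb1ΔM/ApoeKO libraries. Zeb1ΔM/ApoeKO replicate 1 was far above the rest, and the genotypes did not overlap. In CPM, the Zeb1WT/ApoeKO libraries had 0 and 90.7, and the Zeb1ΔM/ApoeKO libraries had 20565, 518 and 257.

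The mean of *Anxa3* was 45.3 ± 64.1 CPM (SD, n = 2) in the Zeb1WT/ApoeKO libraries and 7113 ± 11650 CPM (SD, n = 3) in the Zeb1ΔM/ApoeKO libraries. The fitted log2 fold change was 7.29 with a standard error of 2.79, a value that helped choose the family. The upper mean rested on Zeb1ΔM/ApoeKO replicate 1, in which *Anxa3* took 1.02% of all counts. Without that library the mean was 387 ± 184 CPM (SD, n = 2) and the log2 fold change was 3.05 with a standard error of 3.87. The fitted difference ranged from 3.05 to 20.31 with 1 library left out. Its upper end came without Zeb1WT/ApoeKO replicate 2, when the only Zeb1WT/ApoeKO library had 0 counts and the value depends on the prior count. *Gm42603*, which overlaps exons of *Anxa3* in the annotation, had 0 counts in all 5 libraries.

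Markers of other myeloid cells that carry *Anxa3* were read in the same libraries. The summed level of 8 neutrophil markers was 2617 and 1135 CPM in the Zeb1WT/ApoeKO libraries and 2785, 1259 and 139 CPM in the Zeb1ΔM/ApoeKO libraries, with 4 or 5 of the 8 above 3 counts in each. The defining neutrophil gene *Ly6g* had at most 1 count, and *Mmp9* at most 5. Others were well counted in some libraries. *Csf3r* had 7309, 17767 and 4976 counts in Zeb1WT/ApoeKO replicate 2 and Zeb1ΔM/ApoeKO replicates 2 and 3. *Retnlg* had 8892 and 9370 in Zeb1WT/ApoeKO replicate 1 and Zeb1ΔM/ApoeKO replicate 2, and *Mmp8* had 8665 in Zeb1WT/ApoeKO replicate 2. In Zeb1ΔM/ApoeKO replicate 1, *S100a8* had 33132 counts, 2734 of the 2785 CPM summed there. Its partner gene *S100a9* had 0 counts there and 1041 to 29483 in the other libraries. The summed level of 4 monocyte markers was 1879 and 1187 CPM in the Zeb1WT/ApoeKO libraries and 7834, 1542 and 1244 CPM in the Zeb1ΔM/ApoeKO libraries. The high sum in Zeb1ΔM/ApoeKO replicate 1, where *Anxa3* was highest, came from *Plac8* alone, with 94910 counts. The other 3 monocyte markers did not share that value. *Ly6c2* had 16 counts there and 12491 to 32082 in the other libraries. *Ccr2* had 14 counts there, 0 in Zeb1WT/ApoeKO replicate 1 and 3698 to 14917 in the others, and *Chil3* had 2118 counts in Zeb1WT/ApoeKO replicate 1 and 0 in the other 4 libraries. The sort was on F4/80 among other markers, and the share of neutrophils left after it was not measured. The part of these cell types in the level of *Anxa3* was not tested, and in bulk libraries a change in the number of cells of a type and a change in RNA per cell cannot be told apart.

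*Anxa7* encodes synexin, an annexin that joins membranes of secretory vesicles. The gene (ENSMUSG00000021814.17, chromosome 14 of GRCm38 from 20455260 to 20480133, minus strand) shared with *Anxa3* its highest value in Zeb1ΔM/ApoeKO replicate 1. It had 0 and 3315 counts in the Zeb1WT/ApoeKO libraries and 29152, 0 and 853 counts in the Zeb1ΔM/ApoeKO libraries. The genotypes overlapped, since each had a library at 0. Zeb1WT/ApoeKO libraries averaged 48.1 ± 68.0 CPM (SD, n = 2) and Zeb1ΔM/ApoeKO libraries 808 ± 1384 CPM (SD, n = 3). The difference was 4.07 ± 3.93 on the log2 scale (fitted value ± standard error), with an adjusted p of 1 by the quasi-likelihood test of edgeR with Benjamini-Hochberg adjustment, which was used for all genes below. Without Zeb1ΔM/ApoeKO replicate 1 the direction turned, to a log2 fold change of −2.57, again not past the threshold.

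**Figure D1:**
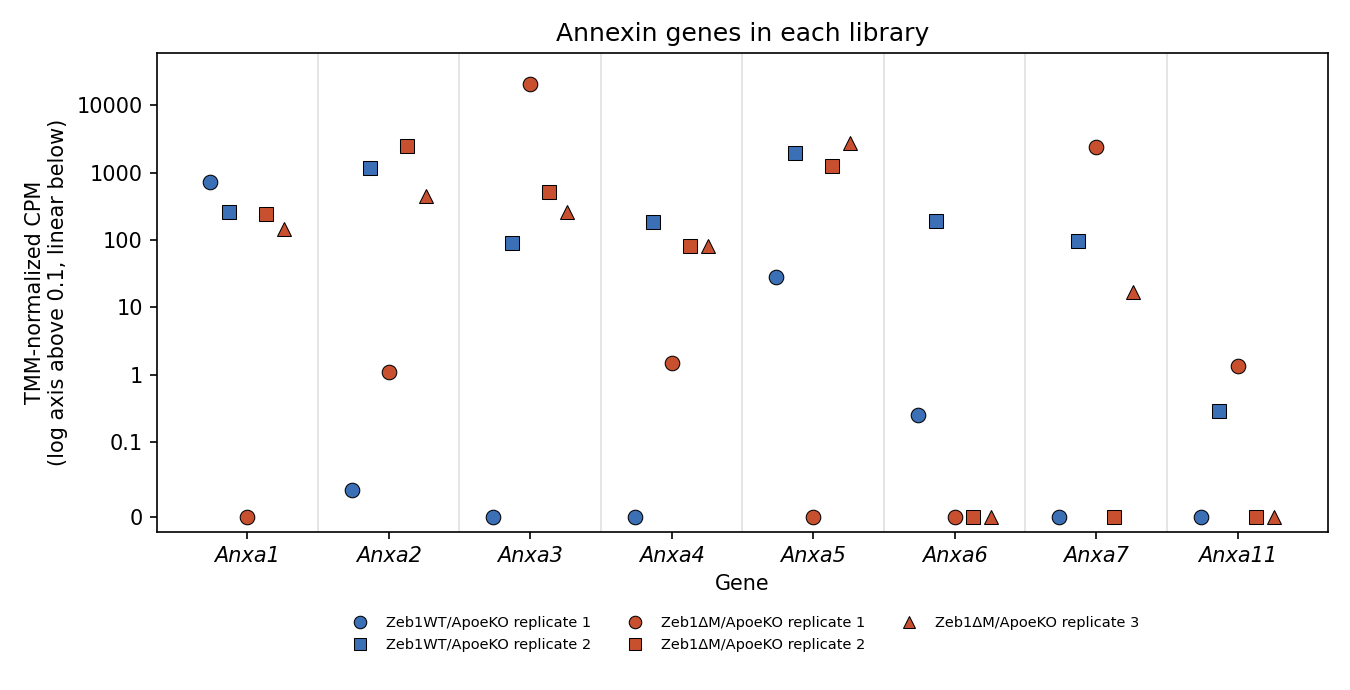
TMM-normalized CPM of the 8 annexin genes (y axis, logarithmic above 0.1 and linear below) in each of the 5 libraries, with 1 point per library, colour for genotype and shape for replicate number. *Anxa3* is the only gene with every Zeb1ΔM/ApoeKO point above the Zeb1WT/ApoeKO points, from 257 to 20565 CPM against 0 and 90.7 CPM, and *Anxa6* lies at 0 in all 3 Zeb1ΔM/ApoeKO libraries.

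*Anxa5*, *Anxa2* and *Anxa4* had another pattern in common. All of them had between 3456 and 137701 counts in Zeb1WT/ApoeKO replicate 2 and in Zeb1ΔM/ApoeKO replicates 2 and 3. In both libraries numbered 1 they had at most 790 counts. *Anxa5* encodes the annexin with the best known affinity for phosphatidylserine, the lipid exposed by apoptotic cells. It (ENSMUSG00000027712.13, chromosome 3 of GRCm38 from 36448923 to 36475894, minus strand) had 790 and 66865 counts in the Zeb1WT/ApoeKO libraries and 0, 54072 and 137701 counts in the Zeb1ΔM/ApoeKO libraries. The Zeb1ΔM/ApoeKO libraries thus held both the lowest and the highest value. Zeb1WT/ApoeKO averaged 984 ± 1352 CPM (SD, n = 2) and Zeb1ΔM/ApoeKO 1335 ± 1372 CPM (SD, n = 3). The difference of 0.44 ± 2.72 on the log2 scale (edgeR adjusted p = 1) was within the spread between libraries of a genotype. The direction turned without Zeb1WT/ApoeKO replicate 1 (−0.42), without Zeb1ΔM/ApoeKO replicate 3 (−0.65), with upper-quartile factors (−0.16) and with the replicate number as a block (−5.32).

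*Anxa2* encodes the annexin that pairs with S100A10 at the cell surface, where the complex docks plasminogen and its activator, and that also links actin to endosomes. The gene (ENSMUSG00000032231.14) lies on chromosome 9 of GRCm38 from 69453620 to 69491795 on the plus strand. It had 1 and 41043 counts in the Zeb1WT/ApoeKO libraries and 13, 104916 and 22583 counts in the Zeb1ΔM/ApoeKO libraries. The genotypes overlapped, and the 2 lowest libraries, 1 of each genotype, were those numbered 1. Mean levels were 596 ± 842 CPM in Zeb1WT/ApoeKO (SD, n = 2) and 968 ± 1306 CPM in Zeb1ΔM/ApoeKO (SD, n = 3), a difference of 0.70 ± 3.0 on the log2 scale (edgeR adjusted p = 1). The direction turned without Zeb1WT/ApoeKO replicate 1 (−0.19) and without Zeb1ΔM/ApoeKO replicate 2 (−1.31). *Gm16144*, antisense to *Anxa2* and sharing exon sequence with it, had 5 counts in Zeb1WT/ApoeKO replicate 1 and 0 elsewhere.

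*Anxa4* encodes an annexin best known in epithelia, where it lowers membrane permeability. The gene (ENSMUSG00000029994.17, chromosome 6 of GRCm38 from 86736840 to 86793584, minus strand) had 0 and 6290 counts in the Zeb1WT/ApoeKO libraries and 18, 3456 and 4140 counts in the Zeb1ΔM/ApoeKO libraries. Zeb1ΔM/ApoeKO replicates 2 and 3 were close to each other at 80.8 and 82.4 CPM, and Zeb1WT/ApoeKO replicate 2 was higher at 183 CPM. Zeb1WT/ApoeKO averaged 91.3 ± 129 CPM (SD, n = 2) and Zeb1ΔM/ApoeKO 54.9 ± 46.3 CPM (SD, n = 3). The difference of −0.73 ± 4.78 on the log2 scale (edgeR adjusted p = 1) was within the spread between libraries and became positive (13.90) without Zeb1WT/ApoeKO replicate 2, which leaves a single library with 0 counts in that genotype. *Gm44036*, which shares exon sequence with *Anxa4*, had 0 counts in every library.

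*Anxa1* encodes the glucocorticoid-induced annexin A1, which restrains leukocyte recruitment through formyl peptide receptors. The gene (ENSMUSG00000024659.15) lies on chromosome 19 of GRCm38 from 20373428 to 20390944 on the minus strand. It had 20354 and 9103 counts in the Zeb1WT/ApoeKO libraries and 0, 10422 and 7404 counts in the Zeb1ΔM/ApoeKO libraries. In CPM the Zeb1WT/ApoeKO libraries had 737 and 264, and the Zeb1ΔM/ApoeKO libraries had 0, 244 and 147, so the genotypes were just apart after TMM scaling. They overlapped when counts were scaled by the library total alone, by RLE or by upper-quartile factors. Mean levels were 501 ± 334 CPM in Zeb1WT/ApoeKO (SD, n = 2) and 130 ± 123 CPM in Zeb1ΔM/ApoeKO (SD, n = 3), a difference of −1.94 ± 3.71 on the log2 scale (edgeR adjusted p = 1). The log2 fold change was −1.64 without Zeb1ΔM/ApoeKO replicate 1, the library at 0, and −0.91 without Zeb1WT/ApoeKO replicate 1. *Anxa1* had the highest count of the family in Zeb1WT/ApoeKO replicate 1, where *Anxa5* was next with 790.

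*Anxa6* encodes the annexin with a doubled core, known from late endosomes. The gene (ENSMUSG00000018340.13, chromosome 11 of GRCm38 from 54979108 to 55033445, minus strand) had 7 and 6631 counts in the Zeb1WT/ApoeKO libraries and 0 counts in all 3 Zeb1ΔM/ApoeKO libraries. The genotypes did not overlap, but the level of Zeb1WT/ApoeKO rested on replicate 2, with 192 CPM against 0.253 CPM in replicate 1. Zeb1WT/ApoeKO averaged 96.3 ± 136 CPM (SD, n = 2). Set against the level that 3 counts per library would give in Zeb1ΔM/ApoeKO, this was at least 766-fold higher. *Anxa6* passed the filter on low counts only through the genotype in which it was counted, so its direction was fixed by the filter and its difference is given as a description. Without Zeb1WT/ApoeKO replicate 2, *Anxa6* did not pass that filter. In that library the summed level of 4 T cell markers was 3741 CPM, with all 4 at 100 counts or more, against 1.07 to 876 CPM in the other libraries. Zeb1ΔM/ApoeKO replicates 2 and 3 had 361 and 876 CPM of these markers and 0 counts of *Anxa6*. The sort was on CD11b and F4/80 as well as CD45, and the share of T cells left after it was not measured. The part of T cell RNA in the level of *Anxa6* was not tested.

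*Anxa11* encodes the annexin that tethers RNA granules to lysosomes. The gene (ENSMUSG00000021866.15, chromosome 14 of GRCm38 from 25842156 to 25886804, plus strand) had 0 and 10 counts in the Zeb1WT/ApoeKO libraries and 16, 0 and 0 counts in the Zeb1ΔM/ApoeKO libraries. It was thus at or near the floor everywhere, and a difference was not detectable at this depth. Its antisense gene *Anxa11os*, which shares exon sequence with it, had 12 and 0 counts in the Zeb1WT/ApoeKO libraries and 8, 0 and 1 counts in the Zeb1ΔM/ApoeKO libraries. Counting with the default options of RSEM does not use strand, so the reads of such a pair cannot be told apart by it. Outside the 8 genes, *Anxa8*, *Anxa9* and *Anxa13* had 0 counts in every library and *Anxa10* had 3 counts in Zeb1ΔM/ApoeKO replicate 1.

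Levels were compared between members as CPM per kb of exon sequence. Over the 5 libraries the order of the mean level was *Anxa3* (1177 ± 2499), *Anxa5* (672 ± 674), *Anxa2* (219 ± 277), *Anxa1* (95.6 ± 95.1), *Anxa7* (84.1 ± 178), *Anxa4* (14.95 ± 16.2), *Anxa6* (13.2 ± 29.4) and *Anxa11* (0.0779 ± 0.138), each with its SD over the libraries (n = 5). Every pair of neighbours in this order differed by less than the larger SD of the pair, and the places of *Anxa3*, *Anxa7* and *Anxa6* each rested on a single library. *Anxa7* had 402 CPM per kb in Zeb1ΔM/ApoeKO replicate 1 and at most 16.1 elsewhere, and *Anxa6* had 65.7 in Zeb1WT/ApoeKO replicate 2 and at most 0.0865 elsewhere. Within each library, genes with more than 3 counts and an exon length in the annotation were also ranked by CPM per kb. *Anxa5* ranked 43 of 6052 such genes in Zeb1WT/ApoeKO replicate 2, and 67 of 5003 and 38 of 6821 in Zeb1ΔM/ApoeKO replicates 2 and 3. In Zeb1WT/ApoeKO replicate 1, where its count was far lower, it ranked 1072 of 6922. *Anxa3* ranked 49 of 16394 in Zeb1ΔM/ApoeKO replicate 1, against 531 of 5003 and 1065 of 6821 in replicates 2 and 3 of that genotype. *Anxa2* ranked 74 of 5003 in Zeb1ΔM/ApoeKO replicate 2.

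The member that led the family therefore changed with the library. *Anxa1* made up 94.0% of the summed CPM per kb of the family in Zeb1WT/ApoeKO replicate 1, and *Anxa3* made up 93.3% in Zeb1ΔM/ApoeKO replicate 1. *Anxa5* led in the other 3 libraries, with 66.3% in Zeb1WT/ApoeKO replicate 2 and 44.1% and 85.5% in Zeb1ΔM/ApoeKO replicates 2 and 3. *Anxa2* came second in these 3 libraries, with 19.4%, 40.8% and 6.68%. The summed level of the family was 766 and 3957 CPM in the Zeb1WT/ApoeKO libraries and 22974, 4560 and 3694 CPM in the Zeb1ΔM/ApoeKO libraries. Of the sum in Zeb1ΔM/ApoeKO replicate 1, *Anxa3*, the gene that chose the family, supplied 20565 CPM. Without *Anxa3* the sums were 766 and 3867 CPM in the Zeb1WT/ApoeKO libraries and 2409, 4042 and 3437 CPM in the Zeb1ΔM/ApoeKO libraries. These averaged 2316 ± 2193 CPM (SD, n = 2) and 3296 ± 825 CPM (SD, n = 3), and the genotypes overlapped.

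**Figure D2:**
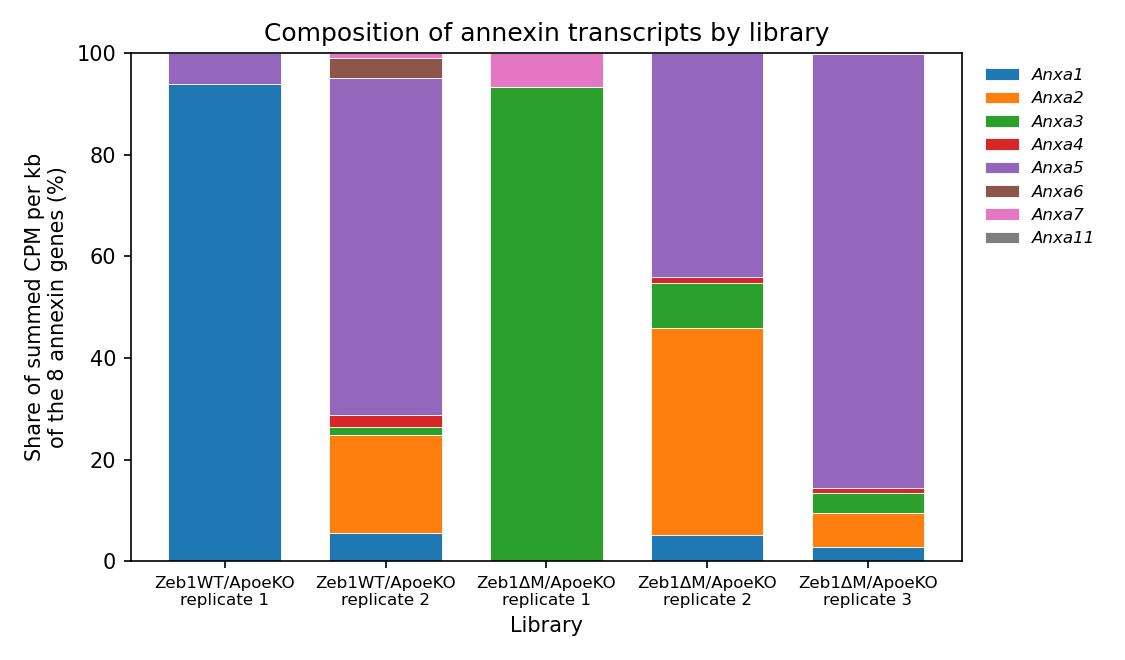
Share of each annexin gene in the summed CPM per kb of the 8 genes (y axis, percent) in each library (x axis), as stacked bars. *Anxa1* fills 94.0% of the bar of Zeb1WT/ApoeKO replicate 1 and *Anxa3* 93.3% of that of Zeb1ΔM/ApoeKO replicate 1, whereas *Anxa5* is the largest part of the other 3 bars.

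The comparison of the genotypes asks which genes differ between the libraries labelled KO and WT, labels that the counts of *Zeb1* did not check. edgeR's quasi-likelihood test called 0% of the 7905 genes at an adjusted p under 0.05 (0 genes, and 86 or 1.09% at an unadjusted p under 0.05). Of the 6 annexin genes other than *Anxa3* and *Anxa6*, none was called (0 genes), and none had an unadjusted p under 0.05. *Anxa6* was not called either, and its unadjusted p was not read, since the filter fixed its direction. DESeq2, which called 12.1% of the 6519 genes it gave an adjusted p, called 1 of the 5 annexin genes with such a p, and limma-voom with sample quality weights, which called 2.96% of the 7905 genes, called none. The gene called by DESeq2 was *Anxa6*, and since that gene had counts in 1 genotype only the call was not read as a result on the family. Genotypes without overlap in CPM were found for 6.68% of all genes tested with Zeb1ΔM/ApoeKO higher and for 4.54% with Zeb1ΔM/ApoeKO lower. In the family this held for *Anxa3* in the first direction, by choice, and for *Anxa1* and *Anxa6* in the second. *Anxa1* did not keep it under the other 3 scalings, and for *Anxa6* the filter fixed the direction, so nothing was read from this count.

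The median log2 fold change was 0.57 over the 6 members other than *Anxa3* and *Anxa6*, whose directions were fixed by the choice and by the filter, with 4 of the 6 above 0. Over all 7905 genes tested it was 0.78, with 60.9% above 0. The median of all genes moved with the scaling, to 1.24 with RLE factors, 0.29 with upper-quartile factors and 0.13 with library totals alone. Relative to this median, *Anxa2* and *Anxa5* lay below it with TMM (0.70 and 0.44 against 0.78) and with RLE, and *Anxa2* lay above it with the other 2 scalings. *Anxa5* lay above it with library totals alone (0.49 against 0.13).

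**Figure D3:**
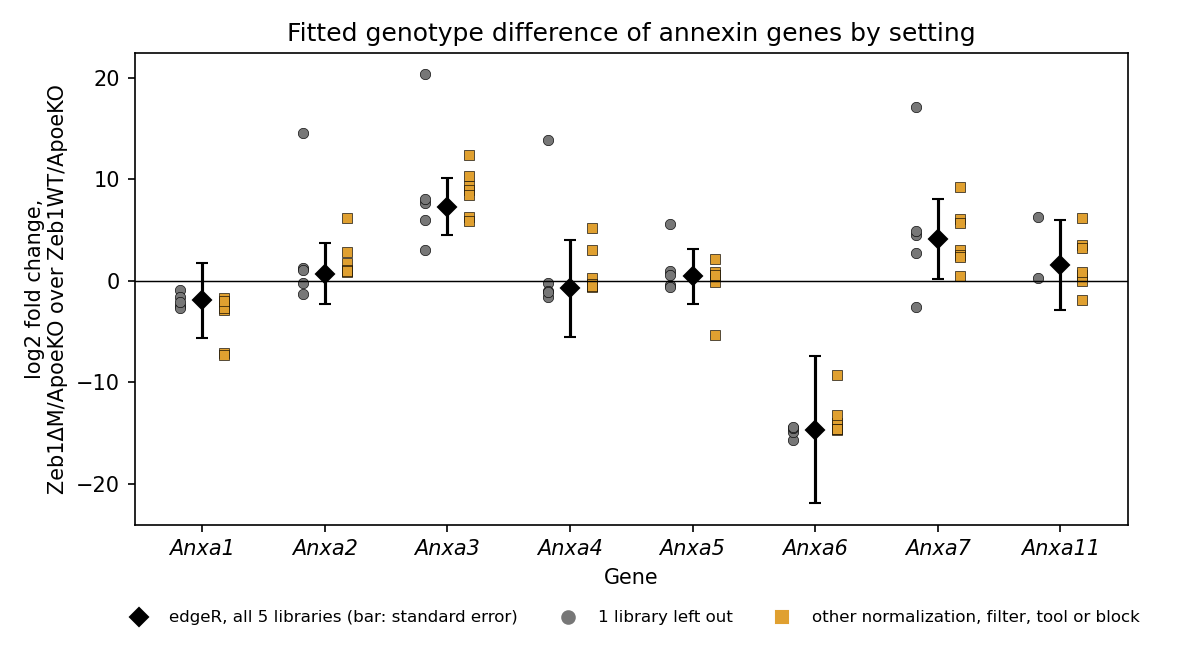
Fitted log2 fold change of Zeb1ΔM/ApoeKO over Zeb1WT/ApoeKO (y axis) for each annexin gene, as the edgeR value with all 5 libraries (diamond, bar for the standard error), with 1 library left out (circles) and with another normalization, filter, tool or the replicate block (squares). The points of *Anxa3*, chosen for its difference, run from 3.05 to 20.31 and those of *Anxa1* from −7.32 to −0.91, those of *Anxa6* can only be negative, and *Anxa2*, *Anxa4*, *Anxa5*, *Anxa7* and *Anxa11* have points on both sides.

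Partners and receptors of annexins were read as a list of 15 genes. Of these, 9 passed the filter on low counts. None was called by edgeR (0 genes, against 0% of all genes), and none was without overlap between the genotypes (0 genes, against 11.2% of all genes), which for so few genes says little. Their median log2 fold change was −0.08, against 0.78 over all genes. *S100a10*, the partner of annexin A2, had 5166 and 11033 counts in the Zeb1WT/ApoeKO libraries and 9, 23069 and 4879 counts in the Zeb1ΔM/ApoeKO libraries. Unlike *Anxa2*, it was therefore well counted in Zeb1WT/ApoeKO replicate 1, and like *Anxa2* it was nearly absent from Zeb1ΔM/ApoeKO replicate 1. The related EF-hand genes *S100a4*, *S100a6* and *S100a11* had 0 counts in Zeb1ΔM/ApoeKO replicate 1 and 2054 to 18980 counts in each of the other 4 libraries, the same presence and absence as *Anxa1*. *Ahnak*, a scaffold of the annexin A2 complex, had 69 counts in Zeb1ΔM/ApoeKO replicate 1 and 1244 to 16370 in the others.

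*Sri* encodes sorcin, a calcium-binding partner of annexin A7. It had 7506 and 11841 counts in the Zeb1WT/ApoeKO libraries and 119988, 8127 and 28005 counts in the Zeb1ΔM/ApoeKO libraries, so that like *Anxa7* and *Anxa3* it was highest in Zeb1ΔM/ApoeKO replicate 1. The genotypes overlapped (3.53 ± 2.68 on the log2 scale, edgeR adjusted p = 1). *Pdcd6*, whose product ALG-2 binds annexins A7 and A11, had 0 and 15546 counts in the Zeb1WT/ApoeKO libraries and 0, 0 and 6234 counts in the Zeb1ΔM/ApoeKO libraries. *Fpr1*, a receptor of annexin A1, had 7858 counts in Zeb1ΔM/ApoeKO replicate 1 and 0 elsewhere, the library in which *Anxa1* itself had 0 counts. *Fpr2*, the main receptor of annexin A1, had 8 counts in that library and 0 elsewhere. *Plgrkt*, a plasminogen receptor, was counted in Zeb1WT/ApoeKO replicate 2 (7597) and Zeb1ΔM/ApoeKO replicate 2 (8333) and had 0 counts in the others. *Pla2g4a*, *Plat*, *Dysf*, *Myof* and *Trim72* had at most 107 counts in any library.

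**Figure D4:**
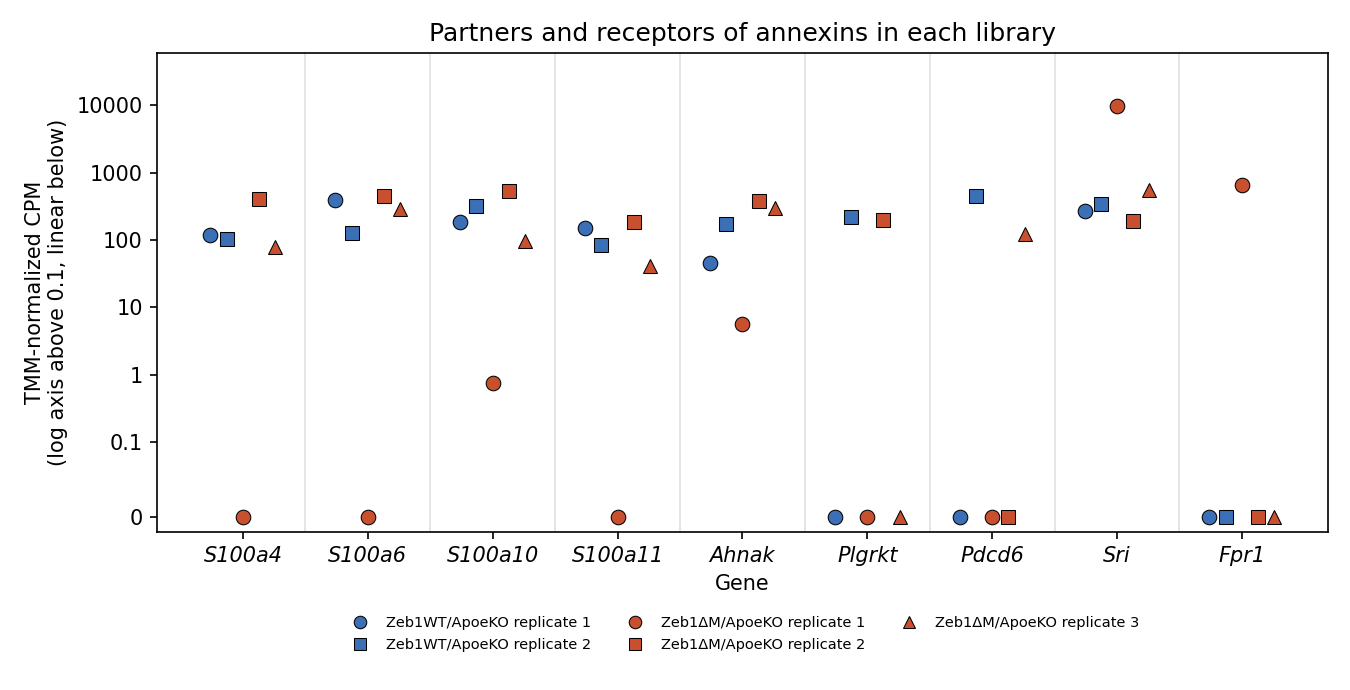
TMM-normalized CPM of 9 partners and receptors of annexins (y axis, logarithmic above 0.1 and linear below) in each of the 5 libraries, with 1 point per library. The 4 S100 genes and *Ahnak* have their lowest point in Zeb1ΔM/ApoeKO replicate 1, where *Sri* and *Fpr1* have their highest, at 9901 and 648 CPM.

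The tested genes nearest to *Anxa3* over the 5 libraries were found by the Euclidean distance between log2 CPM values. This distance depends on the level of a gene as well as on its pattern. The nearest was *Ncf4*, a cytosolic subunit of the phagocyte NADPH oxidase, at a distance of 1.36. The proteasome subunit gene *Psmb6* (2.30), the survival gene *Bcl2a1d* (2.77) and the thioredoxin-like gene *Txndc17* (2.80) were also among the nearest. The median distance over the 7904 other genes tested was 21.9. *Ncf4* had 0 and 178 CPM in the Zeb1WT/ApoeKO libraries and 17535, 557 and 484 CPM in the Zeb1ΔM/ApoeKO libraries. These 4 genes had at most 5 counts in Zeb1WT/ApoeKO replicate 1 and their highest value in Zeb1ΔM/ApoeKO replicate 1. *Bcl2a1d* has near-identical copies, so its counts are uncertain. None of them was another annexin gene.

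ZEB1 represses or activates its targets and binds the E-box letters CAGGTG, read as CACCTG on the other strand. These letters were searched on both strands in RefSeq promoter windows of GRCm38.p6, 300 bases each around a start site. Of the 32851 windows of the genome, 20.2% held a match. The table had 8 windows for 6 of the annexin genes, and 2 windows held a match. *Anxa3* and *Anxa6* had no window in it. *Anxa7* had 3 matches in the window of 1 of its 2 start sites, 147 and 91 bases before and 44 bases after that site, and *Anxa11* had 1, 79 bases before its start. The windows of *Anxa1*, *Anxa2*, *Anxa4* and *Anxa5* held none, which says only that these letters are not in them. The counts hold no measure of binding. Shown are both windows with a match and, as a window without one, that of *Anxa5*, the leading member in 3 libraries. Capitals mark the matches.
Anxa7, chr14:20479892-20480191, minus strand: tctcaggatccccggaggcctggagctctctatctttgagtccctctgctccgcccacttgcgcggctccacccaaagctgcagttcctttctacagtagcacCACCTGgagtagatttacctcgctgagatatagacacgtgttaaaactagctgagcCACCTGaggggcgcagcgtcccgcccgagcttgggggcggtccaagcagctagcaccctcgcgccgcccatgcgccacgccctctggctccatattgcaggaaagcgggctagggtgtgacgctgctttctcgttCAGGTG
Anxa11, chr14:25841905-25842204, plus strand: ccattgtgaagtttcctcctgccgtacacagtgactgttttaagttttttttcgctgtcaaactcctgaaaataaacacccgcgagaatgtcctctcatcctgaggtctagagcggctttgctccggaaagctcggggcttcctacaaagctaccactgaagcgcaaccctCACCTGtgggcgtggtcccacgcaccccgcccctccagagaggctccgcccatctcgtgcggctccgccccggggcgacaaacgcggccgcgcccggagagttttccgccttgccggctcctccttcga
Anxa5, chr3:36475838-36476137, minus strand: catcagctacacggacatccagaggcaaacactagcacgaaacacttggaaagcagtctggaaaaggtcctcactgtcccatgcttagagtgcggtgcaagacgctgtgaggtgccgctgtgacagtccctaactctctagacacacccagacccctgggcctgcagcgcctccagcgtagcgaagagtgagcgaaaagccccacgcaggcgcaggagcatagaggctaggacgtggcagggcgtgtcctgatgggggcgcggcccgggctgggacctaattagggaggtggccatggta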

How the data were processed

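Per the labels and the methods of the study, the authors used STAR 2.5.3a for mapping of the read pairs (GRCm38) and RSEM 1.3.0 with GENCODE genes for quantification. The deposited values are expected counts, all whole numbers, in 1 column per library, with neither normalization nor a filter. Groups follow the genotype in the sample titles. The genotypes were compared in edgeR 4.0.16 (R 4.3.3), using filterByExpr (minimum count 10), TMM factors between 0.515 and 1.42, and the quasi-likelihood test over 7905 genes with Benjamini-Hochberg adjustment, no covariates and a threshold of 0.05. Standard errors are the log2 fold change divided by the root of F, and log2 CPM used a prior count of 2. The alternatives used DESeq2 1.42.0 (default options, the tool of the study), limma 3.58.1, other scalings and filters, the replicate number as a block and each library left out. On simulated counts with the common spread of these libraries, edgeR made no calls and so missed all changed genes. Most calls of DESeq2 and limma-voom there were of unchanged genes. Every simulated gene had the same spread, a simplification, so this does not tell which calls on the real counts are true. The text names the 8 members, other annexin genes, 15 partners, marker genes and the 5 genes nearest to *Anxa3*, of which 1 is not reported here. Members and lists were chosen with earlier results of these data known. Coordinates and exon lengths come from GENCODE M21 (GRCm38), which matched 55227 of 55487 identifiers without their version. Promoter sequences come from RefSeq.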

Additional observations from a re-analysis of the deposited data

How the results depend on the processing

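The number of genes called moved from 0 to 790 with DESeq2 and to 234 with limma-voom, and that of annexin genes called from 0 to 1 with DESeq2. Both stayed at 0 under the other scalings, the filter of 1 count in total and with 1 Zeb1ΔM/ApoeKO library left out. These counts could not fall below 0, so they do not show that a result is stable. No annexin gene had 10 counts in every library, so that filter gave no value for them. The labels number libraries 1 and 2 in both genotypes, and with the replicate block 0 genes were called, 7 at an unadjusted p under 0.05. Nothing in the labels pairs these libraries beyond the number, and the difference between libraries 1 and 2 had a correlation of 0.18 between the genotypes, across genes. With the replicate block the log2 fold change changed sign for *Anxa4* (2.99 against −0.73) and *Anxa5* (−5.32 against 0.44). With upper-quartile factors it did so for *Anxa4* (0.24) and *Anxa5* (−0.16), and with limma-voom for *Anxa4* (5.17) and *Anxa11* (−1.88 against 1.55). With 1 library left out it ranged from −1.31 to 14.58 for *Anxa2*, −1.62 to 13.90 for *Anxa4*, −0.65 to 5.57 for *Anxa5* and −2.57 to 17.15 for *Anxa7*. The cause of these changes was not tested. A fit that leaves 1 Zeb1WT/ApoeKO library assumes that it varies like the other genotype. *Anxa1* kept its sign under every alternative that gave it a value. The signs of *Anxa3*, chosen for its difference, and *Anxa6*, counted in 1 genotype only, say nothing of stability. The number of annexin genes without overlap between genotypes, which includes *Anxa3* by choice, was 3 with TMM, 2 under the other scalings and 3 to 4 with 1 library left out. Over all genes the share was 11.2%, 10.9% to 11.8% and 21.6% to 30.7%. These alternatives for the overlap were chosen after seeing the data. With 2 and 3 libraries and this spread, the data could not resolve differences of the size fitted for *Anxa2*, *Anxa4* and *Anxa5*.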
